A study of Mus musculus with 4 samples.

Results

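Macrophages that carried both complement C1q and high MHC class II transcripts were described in mammary tumours of mice. A cell was taken by its raw UMIs, the unique molecular identifiers that count transcripts. It needed at least 5 UMIs of C1qa, C1qb and C1qc together, at most 1 of the epithelial keratins Krt8 and Krt18, at most 2 of the collagen gene Col3a1, and at least 200 UMIs of H2-Aa, H2-Ab1 and H2-Eb1 per 10000 UMIs of the cell. These limits selected 758 of 36162 cell barcodes, or 30% of the 2526 cells that met the C1q, keratin and collagen limits (C1q cells). The comparison group was the 1380 C1q cells under 100 class II UMIs per 10000 (class II low), and the 388 C1q cells in between were in neither group. The members were thus chosen by the measured levels of 9 genes, which are given as a description, with no test.

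All 4 samples were tumours of female FVB mice aged 13 to 14 weeks that carried MMTV-PyMT, K14Cre and Rosa-tdTomato. MMTV-PyMT expresses the polyoma middle T oncogene in the mammary gland from a viral promoter, and K14Cre with Rosa-tdTomato marks cells in which the keratin 14 promoter has been active. Tumour 1 was collected from multiple glands of mouse 1, tumour 2 from mouse 2 (inguinal gland), and tumours 3 (thoracic) and 4 (inguinal) from mouse 3. There was no tumour-free tissue and no treatment, so every comparison is between cells of the same tumours, with the 3 mice as replicates.

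C1q is the recognition protein of the classical complement pathway, is made mainly by tissue macrophages, and also binds dying cells. MHC class II molecules are pairs of an alpha and a beta chain that show peptides from the lysosome to CD4 T cells. The invariant chain, encoded by Cd74, escorts them from the endoplasmic reticulum, and the H2-DM proteins exchange its remnant for antigenic peptide. Their genes are switched on together by the transactivator CIITA, which binds no DNA itself and is held at class II promoters by RFX, CREB and NF-Y proteins at the X and Y boxes.

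Promoters of 2 genes of the rule (H2-Aa and H2-Eb1) and of the H2-DM beta chain genes are shown because the class II genes are known to share promoter elements. Each sequence holds 150 bases that end at the base before a RefSeq transcription start, read 5′ to 3′ on the gene's strand, from RefSeq promoters of build GRCm38.p6. In the GENCODE annotation H2-DMb1 and H2-DMb2 begin further upstream (17:34153072 and 17:34143307), so these 2 sequences lie wholly or mostly within the genes as annotated there. Capitals mark the letters GNAAC, as in the X box, followed by TGATTGG, as in the Y box. In the last sequence only TGATTGG is marked, because no GNAAC stood before it at the distance searched.
H2-Aa, chr17:34287824-34287973, minus strand: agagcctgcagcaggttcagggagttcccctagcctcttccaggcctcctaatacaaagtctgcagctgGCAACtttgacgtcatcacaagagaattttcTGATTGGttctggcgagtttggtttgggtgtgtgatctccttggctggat
H2-Eb1, chr17:34305717-34305866, plus strand: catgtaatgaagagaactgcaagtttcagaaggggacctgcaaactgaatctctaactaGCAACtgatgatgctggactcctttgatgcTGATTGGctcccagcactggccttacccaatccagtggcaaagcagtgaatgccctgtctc
H2-DMb1, chr17:34153041-34153190, plus strand: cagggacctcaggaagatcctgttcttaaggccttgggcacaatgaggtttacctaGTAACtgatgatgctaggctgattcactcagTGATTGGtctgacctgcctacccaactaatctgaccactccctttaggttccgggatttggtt
H2-DMb2, chr17:34145099-34145248, plus strand: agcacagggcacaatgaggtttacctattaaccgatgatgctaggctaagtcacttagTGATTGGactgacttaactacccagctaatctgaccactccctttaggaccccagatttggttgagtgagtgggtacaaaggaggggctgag

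The pair was counted where TGATTGG followed GNAAC after 15 to 30 bases, on either strand, anywhere in the 250 bases before the start. These letters and distances were chosen after the sequences had been seen, and the 2 motifs do not overlap. GNAAC stood in 79.6% of 32851 promoters and TGATTGG in 7.23%, while the pair stood in 0.396%. Of the 10 class II genes listed, the promoters of 8 were searched (all but H2-Ab1 and Cd74), and 6 of the 8 held the pair (H2-Aa, H2-Eb1, H2-Eb2, H2-DMb1, H2-Oa and H2-Ob). The gap between the motifs was 26 bases in H2-Aa and H2-DMb1 and 25 bases in H2-Eb1. H2-DMa and H2-DMb2 had no such pair. A match is a match of letters only, and neither its presence nor its absence was tested for any factor.

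The libraries held 8434 to 9580 barcodes and 20281799 to 39370565 UMIs. Tumour 1 was the shallowest, with a median of 1922.5 UMIs per barcode against 2589.5 to 3281 in the others. A total of 623 barcode sequences occurred in 2 or more libraries, and 31 member cells carried one of them, but no barcode was a member in 2 libraries. The keratin and collagen limits removed 689 of 3215 cells with at least 5 C1q UMIs, among them 40 that would have been members.

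Members were found in every tumour, 210, 170, 240 and 138 of them in tumours 1 to 4. They were 30.7% of the C1q cells in tumour 1 (exact 95% interval 27.3 to 34.4), 48.7% in tumour 2 (43.4 to 54.1), 27.7% in tumour 3 (24.7 to 30.8) and 22% in tumour 4 (18.8 to 25.5). The intervals are Clopper-Pearson and cover counting error only. Tumour 2 stood above the others, and its interval did not overlap theirs, while the intervals of tumours 3 and 4, both from mouse 3, overlapped. Over the mice the share was 34.9% ± 12.2 (SD, n = 3). Of all barcodes, members were 2.41%, 1.77%, 2.85% and 1.46%, so tumour 2, with the fewest C1q cells, was not the highest on that scale. The shares depend on how many cells of each kind were recovered after dissociation, and dead cells were removed on a magnetic column.

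**Figure D1:**
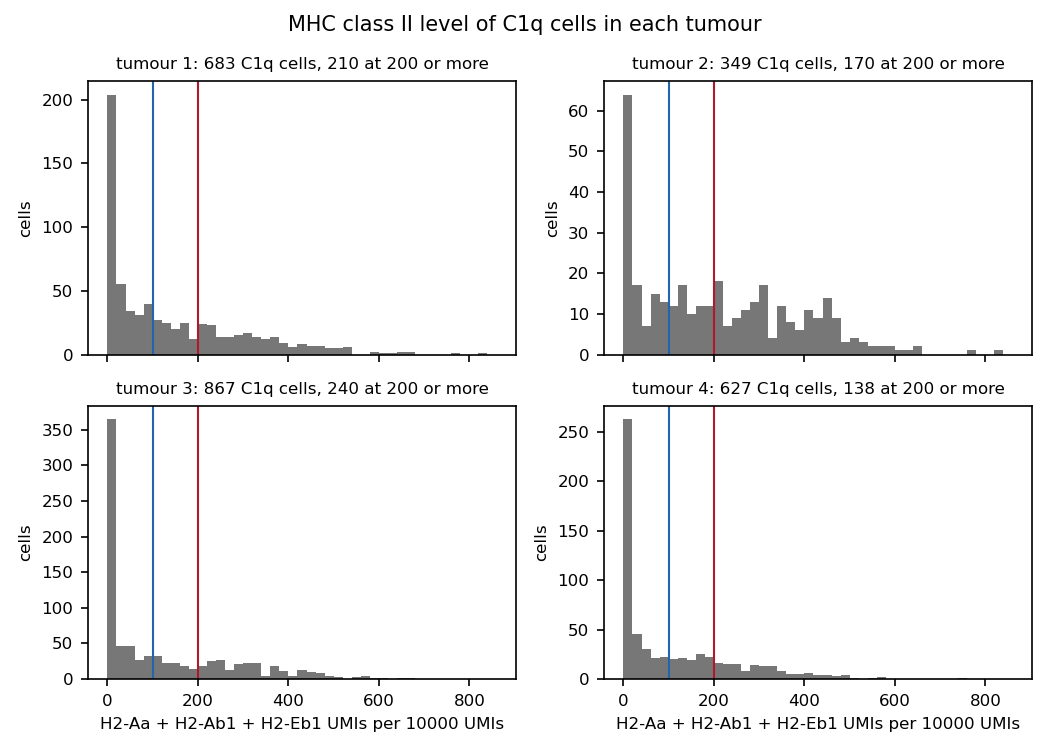
Number of C1q cells (vertical axis) by their class II level, in UMIs per 10000 UMIs and bins of 20, in each tumour. The blue line marks 100 and the red line 200. Every tumour has cells near 0 and a long upper tail, with 170 of 349 cells at 200 or more in tumour 2, and no empty range of levels separates the members from the rest.

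The class II level ran continuously across the limit. The members nearest to it had 200.2, 200.3 and 200.5 UMIs per 10000, and the cells just under it 199.7, 199.4 and 198.8. The median member had 318, 350, 313 and 301 per 10000 in tumours 1 to 4, against 14, 14.3, 5.55 and 3.67 in class II low cells. Members held fewer UMIs than class II low cells in each tumour, with medians of 1090.5, 2136, 1786.5 and 1837.5 against 1439.5, 2527, 2514 and 2121.5. When every cell was thinned to 800 UMIs, a setting chosen after seeing the data, members were still 30.7%, 49.3%, 27.6% and 22.8% of the C1q cells. In a further setting, cells of at least 1500 UMIs were thinned to 1500 and the limits of the rule were applied to the thinned counts. Cells over the keratin or collagen limit at full depth could thus enter, and tumour 2 had 393 C1q cells against 349 without thinning. The share in tumour 1 was then 11.1% (26 of 235 cells) and in the others 45%, 24.4% and 19.5%. Without thinning it was also 11.1%, of the 226 C1q cells of tumour 1 with at least 1500 UMIs, so only 25 of its 210 members had 1500 UMIs or more.

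The 2 class II chains that made up nearly all of the selecting sum were H2-Aa (chr17:34282744-34287823, minus strand) and H2-Ab1 (chr17:34257689-34269419, plus strand), the alpha and beta chain of the I-A molecule. H2-Aa was at 192, 188, 184 and 169 UMIs per 10000 in the members of tumours 1 to 4, at 8.87 to 15.9 in class II low cells and at 0.098 to 0.174 in epithelial cells (at least 10 keratin UMIs and no C1q UMI). H2-Ab1 was at 148, 169, 144 and 145 in members and at 8.06 to 12.4 in class II low cells. H2-Eb1 (chr17:34305867-34316674, plus strand), the beta chain of the I-E molecule, was at only 1.39 to 2.02 in members and 0.122 to 0.156 in class II low cells. The FVB reads were counted on a reference of another strain, and whether this lowered any of these genes was not tested.

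The C1q genes stood at similar levels in both groups, although the rule asked only for 5 UMIs. C1qa was at 71.5, 80.3, 81.2 and 78.6 UMIs per 10000 in the members of tumours 1 to 4 and at 67.9, 79.3, 76.1 and 67.9 in class II low cells. C1qb was at 49 to 60.7 against 49.9 to 61.6, and C1qc at 37.6 to 46 against 38.4 to 45.8.

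To find what else set the members apart, UMIs were summed per mouse and group, and the 9 genes of the rule were left out of the sums. Levels are given as CPM, the UMIs of a gene scaled to the same total in each sum. The groups were compared within mice by edgeR's quasi-likelihood test with adjustment over all genes tested, and a gene passed at an adjusted p under 0.05. Of 4145 genes, 307 passed, or 7.41%: 175 were higher in members (4.22%) and 132 lower (3.18%). The median log2 difference of all tested genes was 0.0033, and the list counts against class II low cells are to be read beside these shares. Of the 203 tested genes on the gene lists, 45 were higher and 39 lower. The count of all passing genes rested on mouse 2 and on mouse 3 (tumours 3 and 4): it was 189 without mouse 2, 136 without mouse 3, 201 without tumour 3 and 232 without tumour 4.

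The rest of the class II machinery was higher in members, which follows the genes that chose them and is given without a test. Cd74, the invariant chain, was at 42593 CPM in the members of tumour 1, 53669.9 in tumour 2, 47573 in tumour 3 and 41857 in tumour 4, against 5215, 5142, 3234 and 3389 in class II low cells. The groups did not overlap, and the fitted log2 difference was 3.52 ± 0.12 (SE). H2-DMa was at 1013, 1165, 943 and 863 CPM against 269, 315, 217 and 185, a log2 difference of 2.12 ± 0.10. H2-DMb1 was at 661, 930, 757 and 752 CPM against 153, 223, 116 and 127. Both chains of H2-DM thus lay above every class II low value in every tumour. H2-DMb2, a near copy of H2-DMb1 whose reads the counting could have shared between them, was at 378 CPM in tumour 1 and 124 to 134 in the others. H2-Ea-ps, annotated as a pseudogene of the I-E alpha chain, was at 182 to 249 CPM in members and 5.64 to 19.1 in class II low cells.

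The genes of the remaining class II chains were near the limit of detection. H2-Oa and H2-Ob encode H2-O, which restrains H2-DM in B cells and some dendritic cells. Over all members H2-Oa had 10 UMIs and H2-Ob 22, and neither entered the test. H2-Eb2 had 0 UMIs in the members of all 4 tumours.

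Ciita, the transactivator, was not part of the rule and rose most among the listed regulators. It was at 85.9 CPM in the members of tumour 1, 101 in tumour 2, 115 in tumour 3 and 103 in tumour 4, against 5.2, 19.1, 2.11 and 12.4 in class II low cells. Every member value exceeded every class II low value. The mean over mice was 99.2 ± 12.5 CPM (SD, n = 3) against 10.1 ± 7.77, a log2 difference of 3.87 ± 0.31 (SE). Ciita entered the test only through the members, where it is high, so it too is given without a test. Epithelial cells had 0.644 CPM on average.

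Of 14 listed regulators of class II, 8 could be tested, Ciita only through its level in members. Of the 8, 2 were higher (Ciita and Spi1) and none was lower, against 4.22% higher of all genes tested. Spi1, which encodes the myeloid factor PU.1, was at 349 ± 33.5 CPM against 289 ± 44.4 (log2 difference 0.41 ± 0.12, adjusted p 0.0288), with overlapping tumours, and 12 of the 20 alternative settings ended this call. Irf8, a factor of macrophage and dendritic cells, was at 282 ± 77.2 against 263 ± 59.1 CPM (adjusted p 0.402). Irf5 was at 102 ± 32.9 against 67.4 ± 23 (adjusted p 0.0801). Irf1, a factor induced by interferon gamma, was at 30.7 ± 11.6 against 25.5 ± 3.68 CPM (adjusted p 0.669). Creb1 and Nfyc did not pass either (adjusted p 0.404 and 0.612). Rfx5, Rfxank, Rfxap, Nfya and Nfyb, with 3 to 16 UMIs in all members, and Irf4, with 1, were too low to test, so a difference in them was not detectable at this depth.

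**Figure D2:**
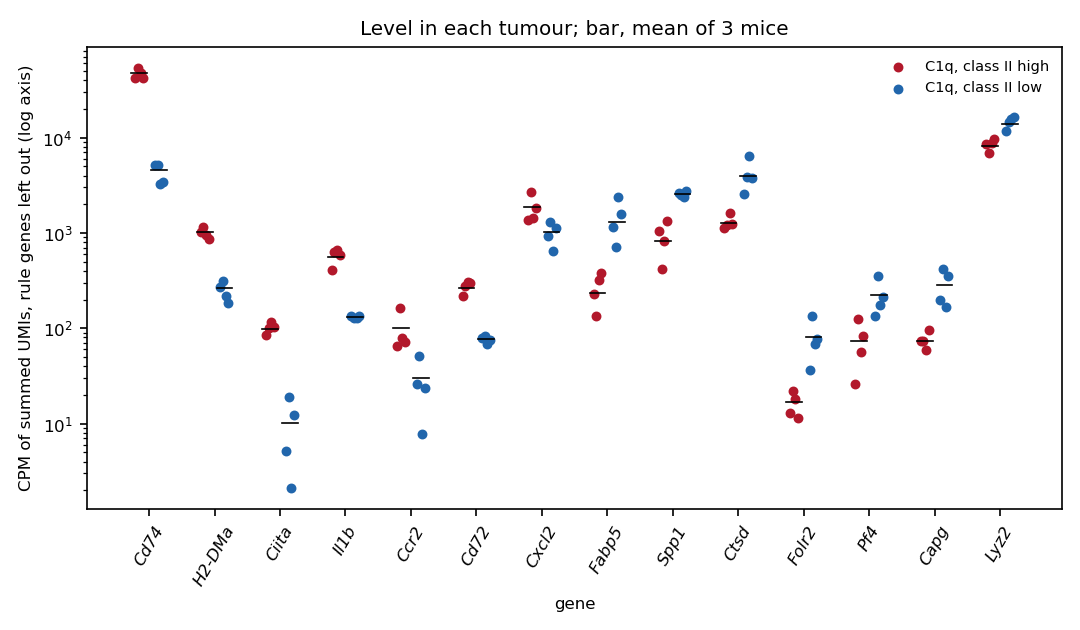
CPM (log axis) of 14 genes in members (red) and class II low C1q cells (blue). Each point is 1 of 4 tumours, in order from left to right, and each bar the mean of 3 mice. The red points of Cd74, Ciita and Il1b lie above all blue points, and those of Fabp5, Ctsd and Capg below them.

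Dendritic cells also carry much class II, so their genes were read beside these results. The summed level of 18 dendritic genes was 1.93 to 3.18 UMIs per 10000 in members, 0.871 to 1.36 in class II low cells 20.3 to 23.6 in the class II high cells with little or no C1q described further on, and 2.64 to 3.07 in epithelial cells. Flt3, Zbtb46, Xcr1 and Clec9a, which define dendritic cells or their lineages, had 0 UMIs in the members of every tumour. A UMI of any of these 4 genes, Cd209a or Ccr7 was held by 0.476%, 1.18%, 0% and 1.45% of members. Without such cells 312 genes passed, 303 of them among the 307. Of the 4 dendritic genes that could be tested, Batf3, Clec10a and Naaa were higher in members. Naaa, a lysosomal lipid amidase, was at 51.5, 79.3, 70.1 and 95 CPM against 45.1, 28.6, 16.9 and 36.1 (log2 difference 1.41 ± 0.26, adjusted p 7.80e-04). Batf3, a transcription factor of cross-presenting dendritic cells, was at 71.7 ± 26.6 against 38.4 ± 5.44 CPM (adjusted p 0.0165). When every cell was thinned to 800 UMIs, Batf3 no longer passed (log2 difference 0.12) and Naaa had too few counts for the test.

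Of 7 inflammatory cytokine genes tested, 2 were higher (Il1b and Tnf), 1 was lower (Il18bp) and 4 did not pass. Il1b, which encodes interleukin-1 beta, was at 412 CPM in the members of tumour 1, 632 in tumour 2, 656 in tumour 3 and 581 in tumour 4, against 134, 127, 127 and 135 in class II low cells. The class II low values were nearly equal in the 4 tumours, and all member values lay above them. The log2 difference was 2.22 ± 0.13 (SE, adjusted p 4.04e-12). Tnf was less abundant and also higher (49.7 ± 6 against 22.9 ± 5.9 CPM, adjusted p 0.0159). Il18bp, which encodes the binding protein that neutralises interleukin-18, was lower (13.1 ± 0.5 against 51.3 ± 25.8 CPM). Il18bp entered the test only through the class II low cells, so its direction was set in advance. The call of Il18bp ended without mouse 3 or without tumour 3, and in both settings 1 of the 7 cytokine genes passed. Il1b passed in all 20 alternative settings. After thinning to 800 or 1500 UMIs, and without cells holding other-lineage UMIs, it was the only cytokine gene to pass, so Tnf did not.

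Of 15 chemokine genes tested, 5 were higher and 3 lower, and 2 to 12 passed over the 20 alternative settings. Cxcl2, a neutrophil attractant, was at 1374, 2687, 1420 and 1824 CPM in members against 921, 1307, 643 and 1131 (log2 difference 0.97 ± 0.09, adjusted p 3.97e-08). Ccl3 (472 ± 52.7 against 325 ± 35.3 CPM), Ccl4 (739 ± 38.6 against 406 ± 40.3), Cxcl1 and Cxcl16 were the others that rose. Tumour 2 had the highest Cxcl2 of both groups. Pf4, Ccl7 and Ccl8 fell. Pf4 was at 25.8, 126, 56.5 and 83.6 CPM in members against 134, 350, 173 and 211. Each member value of Pf4 was below every class II low value.

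Ccr2 and Ifngr1 were the receptor genes read for the monocyte route and for interferon gamma, and both were higher. Ccr2, the receptor by which monocytes leave the bone marrow for tissue, was at 64.4, 161, 79.1 and 72.2 CPM in members against 26, 50.9, 7.75 and 23.7 (log2 difference 2.08 ± 0.25, adjusted p 2.19e-06). Tumour 2 was the highest in both groups, and the groups did not overlap. Ly6c2, which marks classical monocytes, had 3 UMIs in all members and 4 in all class II low cells. The other tested monocyte genes S100a4, S100a6, Fn1 and Ms4a4c did not pass, and Lyz1 was lower. Ifngr1, the ligand-binding chain of the interferon gamma receptor, was at 186 ± 24.5 against 115 ± 30.1 CPM (log2 difference 0.84 ± 0.15, adjusted p 5.63e-04). It was the 1 gene of 5 tested on the interferon gamma list that passed. Ifngr2, the other chain of the receptor, was at 98.9 ± 8.53 against 84.4 ± 22.5 CPM (adjusted p 0.41). Of 6 tested type I interferon targets none passed in edgeR or DESeq2, with 1 (Ifi27l2a, higher) at an unadjusted p under 0.05.

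Among further presentation genes the difference was smaller. Cd86, a co-stimulatory ligand for T cells, was at 156 ± 10.1 against 89.7 ± 12.5 CPM (log2 difference 0.91 ± 0.16, adjusted p 4.21e-04), the only 1 of 7 tested on its list. Of 14 tested class I genes, H2-T23, Psmb10, Psmb8 and Psme1 rose and none fell, but the 4 became 0 without mouse 3 and in DESeq2, and 2 without mouse 2 or without tumour 3. B2m, the light chain of class I, was at 4190 ± 394 against 4147 ± 591 CPM and H2-K1 at 801 ± 53.5 against 854 ± 115 (adjusted p 0.43 and 0.934).

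Immediate-early genes, which are known to respond to tissue dissociation, were also higher. Of 13 tested genes on the dissociation and stress list, 9 passed and all 9 were higher, against 4.22% higher of all genes tested. The median log2 difference of the 13 was 0.69. Over the 20 alternative settings 4 to 11 passed. Fosb was at 270.5, 339, 298 and 224 CPM in members against 134, 162, 146 and 170.3 in class II low cells. Fos was at 936, 1409, 1481 and 1007 CPM against 691, 957, 718 and 818 (log2 difference 0.73 ± 0.09, adjusted p 3.94e-06). Btg2 was at 269 ± 55.8 against 142 ± 12.9 CPM. The summed list was at 36.5 to 50.2 UMIs per 10000 in members, 27.3 to 36.7 in class II low cells and 28.7 to 45.1 in epithelial cells. Its part in the higher Il1b, Tnf and chemokine levels was not tested.

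Outside the lists, the genes named by size were Dcstamp, Cd72, Rrad, Zmynd15 and Epsti1, beside H2-Ea-ps. Cd72, an inhibitory C-type lectin known from B cells, was at 219, 276, 305 and 296 CPM in members against 79.8, 82.7, 68.3 and 74.4 (log2 difference 1.96 ± 0.16, adjusted p 1.51e-09). Ighm, the heavy chain of IgM, was at 139 ± 43.4 against 80.8 ± 40.4 CPM (adjusted p 1.85e-04), with overlapping tumours. The B cell markers Cd79a and Ms4a1 had 0 UMIs in members and Cd79b had 10. Dcstamp, a membrane protein needed for fusion of macrophages and osteoclasts, was at 79.8 to 103 CPM against 3.18 to 46.8, and the groups did not overlap. Zmynd15 was at 38 to 95.8 CPM against 12.7 to 28.9, and Epsti1 at 64.6 to 95.8 against 28.2 to 31.8.

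Lipid-handling genes were lower in members as a group. Of 12 tested lipid-associated macrophage genes, 10 were lower and none higher, against 3.18% lower of all genes tested. Their median log2 difference was -0.70, against 0.0033 over all genes tested. Fabp5, a carrier of fatty acids, was at 228 CPM in the members of tumour 1, 134 in tumour 2, 323 in tumour 3 and 380 in tumour 4, against 1143, 716, 2355 and 1575 in class II low cells. All member values lay below all class II low values. The log2 difference was -2.36 ± 0.11 (SE, adjusted p 1.97e-14). Spp1, which encodes osteopontin, was at 1052, 419, 814 and 1334 CPM against 2614, 2493, 2379 and 2760 (log2 difference -1.56 ± 0.14, adjusted p 1.13e-08). The tumours differed more among members than among class II low cells, and the groups did not overlap. Plin2, the coat of lipid droplets, and Lipa, the lysosomal acid lipase, fell as well (215 ± 6.3 against 384 ± 88.7 CPM and 81.1 ± 11.7 against 155 ± 9.9 CPM). Trem2, the lipid receptor of this programme, fell less (879 ± 19.2 against 1329 ± 229 CPM, log2 difference -0.48 ± 0.10, adjusted p 0.0016). Apoe and Cd63 were the 2 that did not pass. The 10 became 6 without cells holding other-lineage UMIs and 5 without the mouse block.

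Epithelial cells also held Spp1, at 1903 CPM on average, and Fabp5, at 290 CPM, and the part of free epithelial RNA in these results was not tested. The summed epithelial markers were at 9.91 to 27.8 UMIs per 10000 in members and 12 to 45.3 in class II low cells, higher in class II low cells of every tumour, against 220 to 559 in epithelial cells. Of the 4 epithelial markers tested none passed in edgeR or DESeq2, and 0 reached an unadjusted p under 0.05, but 2 passed, both lower, after thinning to 1500 UMIs, and 1 without mouse 2. The thinning to 1500 UMIs could let in cells over the keratin limit at full depth. Wfdc18, the most abundant of them, was at 1617 ± 901 CPM in members and 2076 ± 1623 in class II low cells (adjusted p 0.589). Without the cells that held at least 2 UMIs of another lineage, the log2 difference of Fabp5 was -2.28 and that of Spp1 -1.28, both passing. The cells left out were most of both groups, 53.8% to 78.2% of members and 62.6% to 86.2% of class II low cells. Saa2, an acute-phase gene that epithelial cells of these tumours held at 232 CPM, was lower in members (17 ± 14.2 against 79.3 ± 61 CPM), with overlapping tumours. So were Saa1 (30.6 ± 17.1 against 150 ± 124 CPM, adjusted p 1.25e-05) and Scgb2b27 (89.1 ± 48.6 against 361 ± 451 CPM, adjusted p 0.0049), which epithelial cells held at 401 and 2379 CPM, also with overlapping tumours. In tumour 2, however, Saa1 was higher in members (16.4 against 12.7 CPM), and in tumour 4 Scgb2b27 was (57 against 51.9 CPM). Scgb2b27 differed most in tumour 1 (107 against 876 CPM).

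Genes of resident-type macrophages near vessels were lower. Of 8 tested, 6 were lower (Cbr2, Ccl8, Folr2, Gas6, Pf4 and Selenop) and none higher, against 3.18% lower of all genes tested. The median log2 difference of the 8 was -1.17. Folr2 and Cbr2 entered the test only through the class II low cells, where they are high, so their direction was set in advance. Folr2, a folate receptor, was at 12.9, 21.9, 18.1 and 11.4 CPM in members against 36.4, 134, 69 and 77.8 (log2 difference -2.15 ± 0.29). Lyve1, Timd4 and Cd163, which define such cells, had 1 UMI each in all members. They had too few counts for the test, so they show no difference between the groups. Mrc1, the mannose receptor, was at 25.7 ± 13.4 against 59.4 ± 28.9 CPM (adjusted p 0.151). The 6 became 2 without cells holding other-lineage UMIs, when 1607 genes in all could be tested, and 3 after thinning to 800 UMIs or without tumour 4. Over the 20 alternative settings the lowest count was 1.

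The genes named by size outside the lists, on the lower side, were Cela1, Gm1673, Gm6166, Saa2, Syngr1 and Capg. Syngr1, a protein of vesicle membranes, was at 129, 93, 154 and 103 CPM in members against 371, 337, 622 and 540 (log2 difference -1.80 ± 0.14, adjusted p 1.02e-09). Capg, which caps actin filaments, was at 73, 73.9, 58.8 and 95 CPM against 196, 413, 168 and 354. Cela1, an elastase, was at 3.8 to 8.21 CPM against 50.3 to 104, but rests on 7 UMIs in members. The groups did not overlap in these 3 genes, nor in Gm1673 and Gm6166.

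Lysosomal proteases divided. Cst3, Ctss and Ifi30 were higher, and Ctsb, Ctsd and Ctsl were lower, of 13 tested, and without mouse 3 the 6 became 3 (2 higher, 1 lower). Ctss, the protease that trims the invariant chain, was at 5139, 5863, 4707 and 4731 CPM against 3659, 3905, 4002 and 3190 (log2 difference 0.59 ± 0.08, adjusted p 2.47e-05). Ctsd, an aspartic protease, was at 1121, 1215, 1603 and 1242 CPM against 2555, 3867, 6416 and 3766 (log2 difference -1.49 ± 0.10, adjusted p 6.75e-11). In both genes the groups did not overlap, in opposite directions. Cst3, an inhibitor of cysteine proteases, was at 17532 ± 926 against 9842 ± 812 CPM (log2 difference 0.95 ± 0.09).

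**Figure D3:**
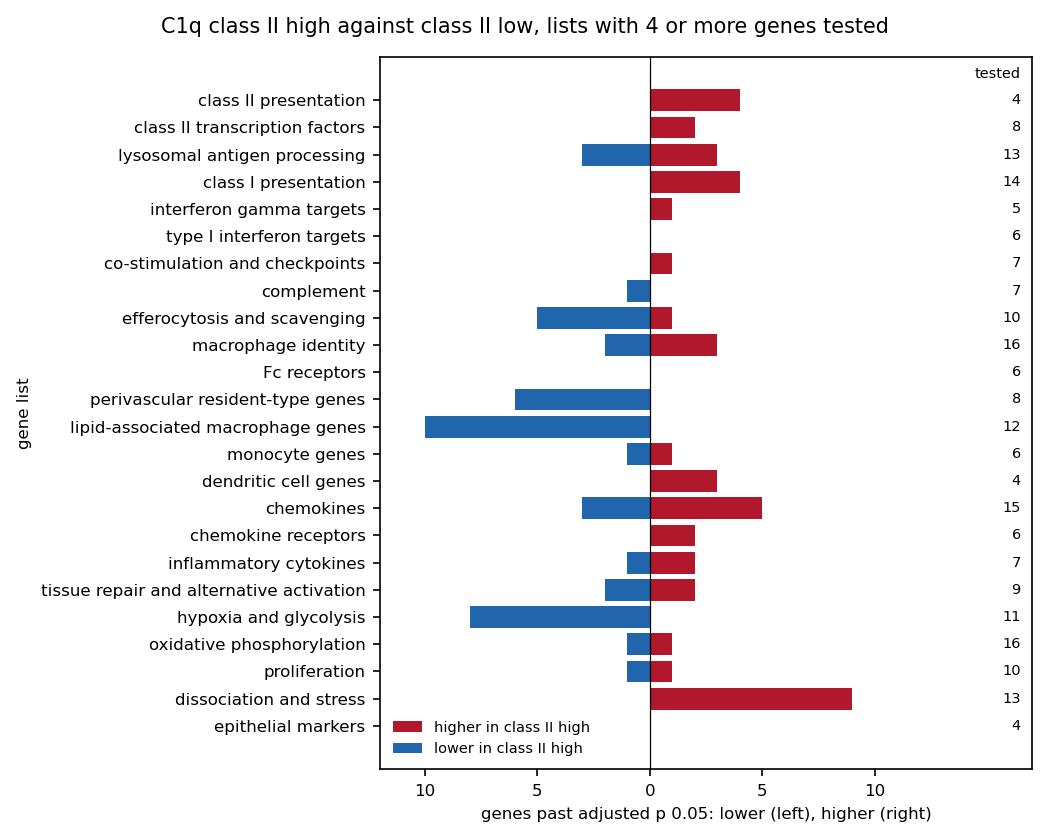
Number of genes of each list (vertical axis) that passed at an adjusted p of 0.05, lower in members to the left (blue) and higher to the right (red), with the number tested at the right edge. Lipid-associated genes (10 of 12) and hypoxia and glycolysis genes (8 of 11) lie to the left, dissociation and stress genes (9 of 13) to the right.

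Glycolysis genes were lower. Of 11 tested on the hypoxia and glycolysis list, 8 were lower and none higher, against 3.18% lower of all genes tested. The 8 were the enzymes Aldoa, Eno1, Gapdh, Ldha, Pfkl, Pgk1 and Pkm and the cytokine Mif. Gapdh was at 554, 826, 484 and 832 CPM in members against 933, 1180, 1130 and 1167 (log2 difference -0.62 ± 0.10, adjusted p 8.43e-05). Bnip3, Hilpda and Hk2 did not pass. The 8 became 4 without mouse 2 or without mouse 3, 5 without tumour 3, 4 in DESeq2, 5 after thinning to 1500 UMIs and 1 without the mouse block. Of 16 genes of oxidative phosphorylation, Uqcrh was higher and Atp5g1 lower, and Cox4i1 was at 2102 ± 60.1 against 2328 ± 171 CPM (adjusted p 0.901). Arg1, the arginase of alternatively activated macrophages, was at 7.1 ± 3.8 against 38.3 ± 7.2 CPM, but epithelial cells held it at 154 CPM. Arg1 entered the test only through the class II low cells, so its direction was set in advance.

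Of 10 tested genes that take up or respond to dying cells, 5 were lower (Abca1, Gas6, Mfge8, Msr1 and Trem2), and Axl was higher at 201 ± 30.2 against 135 ± 17.7 CPM (adjusted p 0.0157). Mfge8, the bridge between dying cells and phagocytes, was at 30.7 ± 18.2 against 83.5 ± 12.3 CPM, and epithelial cells held it at 470 CPM. The 6 calls became 2 without mouse 2, 4 without tumour 4, 3 and 2 after thinning to 800 and 1500 UMIs, and 1 each in DESeq2, without the mouse block and without cells holding other-lineage UMIs. Of proliferation genes, Ube2c was lower and Hmgb2 higher. Hmgb2 was higher in tumours 2 to 4 and lower in tumour 1, and 10 settings ended its call. A UMI of Mki67, Top2a, Birc5, Ube2c or Cdk1 was held by 8.57% to 15.4% of members and 15.9% to 19.8% of class II low cells, which also had more UMIs per cell.

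Of 16 tested genes of macrophage identity, 5 passed, against 7.41% of all genes tested. Cd14, Csf1r and Laptm5 were higher, Cd68 and Lyz2 lower, and 11 did not pass. Without mouse 3 the 5 became 2, and 3 without mouse 1, mouse 2 or tumour 4. Apoe, the most abundant of the named genes, was at 50823 CPM in the members of tumour 1, 46333 in tumour 2, 57576 in tumour 3 and 46565 in tumour 4, against 45092, 46167, 52773 and 43376 (log2 difference 0.22 ± 0.10, adjusted p 0.232). Cx3cr1, the fractalkine receptor, was at 835 ± 89 against 875 ± 82.1 CPM (adjusted p 0.84). Adgre1, which encodes F4/80, was at 83 ± 6.2 against 100 ± 32.2 (adjusted p 0.819). Lyz2, the macrophage lysozyme, was at 8561, 6902, 8691 and 9571 CPM against 11669, 14533, 15729.6 and 16239 (log2 difference -0.67 ± 0.10, adjusted p 3.81e-05). None of the 6 Fc receptor genes passed in edgeR or DESeq2, with 1 (Fcgr4, higher) at an unadjusted p under 0.05. The summed identity genes were at 249 to 289 UMIs per 10000 in members, 318 to 378 in class II low cells and 6.11 to 7.76 in epithelial cells. Both groups thus held these macrophage transcripts, but a gene that did not pass is not thereby equal in them.

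The differences were graded along the class II level. From under 50 to 50-100, 100-200, 200-300 and 300 or more class II UMIs per 10000, mean Ciita over mice was 5.75, 25.1, 44.7, 72.6 and 118 CPM. Over the same steps Fabp5 was 1472, 622, 409, 317 and 165 CPM, and Ctsd 4313, 2470, 1792, 1461 and 1135. Spp1 was 2879, 1416, 1035, 963 and 697 CPM. Each of these means moved in 1 direction at every step. Folr2 did not share this gradual course: it was at 99.6 ± 68 CPM under 50 and at 15.3 to 22.7 in the 4 higher ranges. Il1b was at 98.3, 264, 261, 438 and 643 CPM. Apoe stayed between 41972 and 51110.2 CPM. The ranges hold 31 to 766 cells per mouse, and since they divide the cells that the rule used, no test was made.

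**Figure D4:**
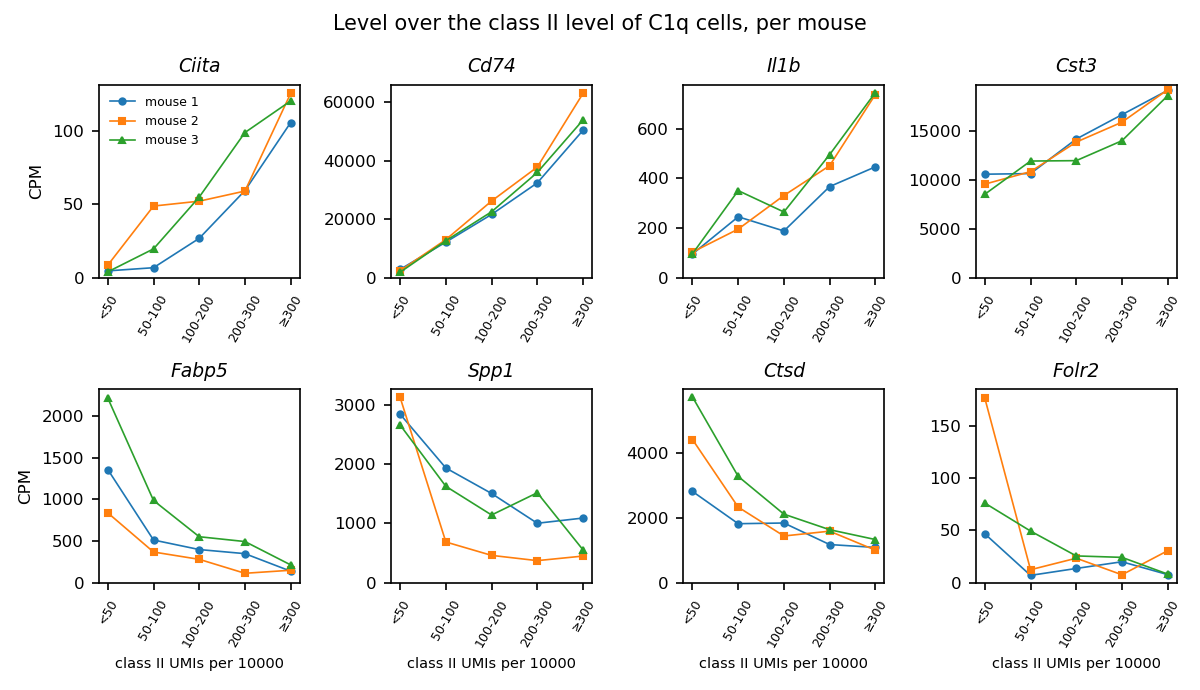
CPM of 8 genes (vertical axes, from 0) over 5 ranges of the class II level of C1q cells, 1 line per mouse. Ciita, Cd74, Il1b and Cst3 are highest in the range of 300 or more in each mouse, while Fabp5, Spp1, Ctsd and Folr2 are highest under 50.

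To ask which features belong to class II high cells in general, members were set beside 133 class II high cells with at most 1 C1q UMI and no UMI of Cd79a, Cd79b or Ms4a1. There were 24, 26, 51 and 32 of these C1q-poor cells in tumours 1 to 4. Of 2075 genes tested, 365 passed (17.6%), 227 higher in members (10.9%) and 138 lower (6.65%). C1q divided these groups, so genes that accompany C1q describe the division. The fit pooled the spread over all genes, so its p-values rest on that pooled spread and not on each gene's own. The count was 172 without mouse 3 and 225 without tumour 3.

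Macrophage genes were higher in members. Of 15 tested identity genes 15 were higher, against the 10.9% above. Ms4a7, a membrane protein of macrophages, was at 2198, 1633, 1947 and 1839 CPM in members and 542, 13.7, 124 and 75 in C1q-poor cells (log2 difference 3.94 ± 0.23). Apoe was at 46333 to 57576 CPM against 976 to 10140.5 (log2 difference 4.09 ± 0.16), and Cx3cr1 at 835 ± 89 against 71.2 ± 54.6 CPM (3.39 ± 0.28). In each of the 3 genes the C1q-poor cells of all tumours lay below all members. Ccl8 was at 183 to 563 CPM in members and had 1 UMI in all C1q-poor cells. Ccl5, a T cell attractant, differed widely among the members of the tumours, at 335, 62.9, 102 and 608 CPM, with 5 UMIs in C1q-poor cells. Il1b was at 557 ± 126 against 171 ± 56.5 CPM (log2 difference 1.79 ± 0.25, adjusted p 2.70e-11).

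Dendritic and monocyte genes were lower in members. Of 6 dendritic genes tested 6 were lower, and of 5 monocyte genes 5, against 6.65% lower of all genes tested. Cd209a, Cd209d, Mgl2 and S100a4 entered the test only through the C1q-poor cells, where they are high, so their direction was set in advance. Cd209a, a lectin of conventional and monocyte-derived dendritic cells, was at 21.5, 2.74, 0 and 15.2 CPM in members against 581, 536, 497 and 495 (log2 difference -5.90 ± 0.37). Cd209d and Mgl2, also lectins, were at 5.24 ± 6.77 against 367 ± 129 and 22.9 ± 8.07 against 180.5 ± 36 CPM. Cd209d was listed not with the dendritic genes but with those of resident-type macrophages. Of 3 tested on that list, Ccl8 and Selenop were higher in members and Cd209d was lower. S100a4, a calcium-binding protein of monocytes, was at 38.6, 46.5, 83.7 and 72.2 CPM against 1626, 1870, 1556 and 2130 (log2 difference -4.79 ± 0.22). For these genes no member value reached a C1q-poor value. Ccr2, which was higher in members than in class II low cells, was lower in them than in C1q-poor cells (101 ± 52.9 against 268 ± 50.3 CPM, adjusted p 3.22e-04). The 2 comparisons share the members.

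Within the class II genes the 2 kinds of cell differed in part. Both groups were chosen by class II level, so Cd74, H2-Oa and the H2-DM genes are given without a test. Of the rule genes, H2-Ab1 was at 144 to 169 UMIs per 10000 in members against 122 to 145 in C1q-poor cells. H2-Aa was at 169 to 192 against 156 to 199. Cd74 was at 41857 to 53669.9 CPM in members against 33557 to 40761 (log2 difference 0.48 ± 0.14). H2-Oa was at 2.26 to 16.4 CPM in members against 120 to 232 (-4.16 ± 0.48), and H2-DMa (-0.47 ± 0.16) and H2-DMb2 (-1.17 ± 0.22) were lower as well. Ciita was at 99.2 ± 12.5 against 163 ± 73.8 CPM (log2 difference -0.73 ± 0.32, adjusted p 0.103), a difference that did not pass and whose tumours overlapped. Trem2 was at 879 ± 19.2 CPM in members, below the class II low cells, and at 105 ± 49.9 in C1q-poor cells. Of 13 lysosomal genes 12 were higher in members, and Ifi30, the lysosomal thiol reductase, was lower.

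**Figure D5:**
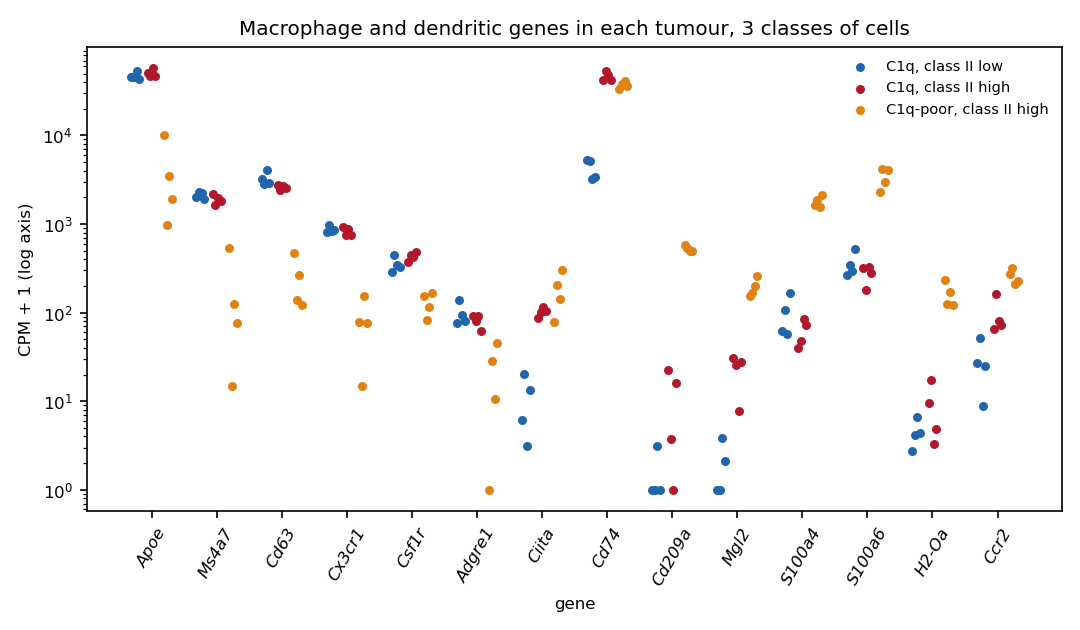
CPM plus 1 (log axis) of 14 genes in class II low C1q cells (blue), members (red) and C1q-poor class II high cells (orange), 1 point per tumour. Members lie with the class II low cells for Apoe, Ms4a7, Cd63, Cx3cr1, Cd209a and S100a4, and near the C1q-poor cells for Cd74.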

How the data were processed

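Single-cell RNA of 4 tumours was deposited by the authors as raw UMI counts per gene and barcode. FastQC, Cell Ranger 2.2.0 and the mm10 (GRCm38) genome are named per the submitters' processing notes. Barcodes were used as deposited, with a lowest total of 836 UMIs. No doublet caller was run. Instead, the keratin and collagen limits applied, and cells with other-lineage UMIs or the top 8% by UMIs were left out as alternatives.

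The members and the 32 gene lists were chosen with earlier results of these data known. Counts were summed per mouse and group (tumours 3 and 4 together) and fitted in edgeR 4.0.16 under R 4.3.3. TMM scaling, filterByExpr and the quasi-likelihood F test were used, with mouse as block because the labels give the animal, and Benjamini-Hochberg adjustment over all tested genes. The procedure was tested on simulated data. DESeq2 1.42.0 was an alternative. CPM are means of mice, with SD.

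Named genes were list genes that passed, moved alike in 3 of 3 mice and reached 50 CPM, the 12 highest and 12 lowest (6 and 6 off the lists, and against C1q-poor cells). All class II and class II factor genes and the top gene of each list were added. Other named genes were chosen after their values were seen. Positions are from GENCODE on GRCm38.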

Additional observations from a re-analysis of the deposited data

Results flagged for a closer look

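In 7 of 91 sets of 4 member values, 1 tumour stood apart from the other 3 by Dixon's ratio. Chance flags about 1 in 20 such sets. Ccr2 was high in tumour 2, at 161 CPM, and Btg2 too, at 334 CPM. H2-DMb2 was high in tumour 1, at 378 CPM. Of the UMIs of H2-DMb1 and H2-DMb2 together, H2-DMb2 took 36.4% in members of tumour 1 (exact 95% interval 30.3 to 42.8) and 12.6% to 14.7% in the others. In class II low cells it took 31.8% in tumour 1 and 10.3% to 18.3% in the others, and in C1q-poor cells 24.1% to 30.3% in all 4. Rrad was low in tumour 2, at 41 CPM, and Vsir, which encodes a checkpoint receptor, low in tumour 1, at 142 CPM. Cela1, at 8.21 CPM in tumour 2, had 7 UMIs in all members, and Irf4, at 2.74 CPM in tumour 2, had 1, so both rest on very few counts.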

How the results depend on the processing

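Of 307 genes that passed between members and class II low cells, 104 passed in DESeq2 (61 higher, 43 lower), which gave no adjusted p for 1447 genes. Without the replicate block, 80 passed, all among the 307. With mice left out in turn, 136 to 384 passed. Without tumour 3 it was 201, after thinning to 1500 UMIs 192, after thinning to 800 UMIs (chosen after seeing the data) 193. Without cells holding at least 2 other-lineage UMIs it was 115, with 1607 genes tested, and 7 of the 224 main calls still tested had the opposite sign. That setting left out most cells of both groups in every tumour. With limits of 300 and 50, 376 passed. With no filter on low counts the split was 129 higher and 158 lower. Spi1, Hmgb2, Lpl, Batf3, Mfge8, Pfkl and Ube2c lost the call under 6 or more settings each. Against C1q-poor cells, 169 of 365 passed in DESeq2, 285 without the replicate block, 225 without tumour 3, and 172 to 440 with mice left out. With no filter on low counts 268 were higher and 100 lower. The mean share of members was 34.9%, 21.1% at a limit of 300 per 10000, 26.1% after thinning to 1500 UMIs, and 28% to 39.7% with mice left out. Where numbers fell, the cause was not tested.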

Other observations

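Retnla, which encodes a secreted protein of alternatively activated macrophages, passed in the comparison with class II low cells (adjusted p 0.0338) but did not move alike in the mice. It was at 223, 230, 65.6 and 26.6 CPM in the members of tumours 1 to 4 and at 3.47, 22.3, 77.5 and 64.3 in class II low cells. It was thus higher in members of mice 1 and 2 and lower in both tumours of mouse 3. C1q-poor class II high cells had 0, 1457, 181 and 4424 CPM.

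Cxcl9, a chemokine that attracts T cells, had 9 UMIs in members, 11 in C1q-poor cells and 0 in class II low cells, too few for a test. Cd274, which encodes PD-L1, had 0 UMIs in members and 6 in class II low cells. Of genes named after their values were seen, Mt2, a metallothionein, was at 156 ± 23.5 CPM in members against 497 ± 112 in class II low cells (log2 difference -1.54 ± 0.13), and Fcrls at 178 against 414 CPM. Plbd1 was at 47.8 CPM against 10.6.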
